A study of Mus musculus with 5 samples.

Results

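The semaphorins, neuropilins, plexins, ephrins and Eph receptors were examined in RNA-seq of hearts from CharmeWT and CharmeKO mice. These genes were taken by symbol, as every annotated gene named Sema, Plxn, Efna, Efnb, Epha or Ephb with its subtype, together with Nrp1 and Nrp2. The annotation held 53 of them, and 46 had at least 10 counts in at least 2 of the 5 libraries, out of 14880 genes that passed this filter and 49671 genes listed. The other 7 genes, Efna3, Epha5, Epha6, Epha8, Epha10, Sema3e and Sema4f, were near the limit of detection and were not tested. Each had fewer than 10 counts in every pool, except for 30 counts of Epha5 in CharmeKO pool 2.

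The mice were of the C57BL6/J strain, and their hearts were taken on postnatal day 2. In CharmeKO mice a polyadenylation signal had been inserted into the locus of Charme, a long noncoding RNA of cardiac and skeletal muscle. Hearts of littermates were pooled by genotype before RNA extraction, giving 3 CharmeWT pools of 9 hearts and 2 CharmeKO pools of 3 hearts. The number of hearts in a pool and the genotype therefore cannot be told apart, and the values describe whole hearts rather than single animals or cell types.

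Semaphorins are guidance cues that are read by plexins. The secreted class 3 semaphorins mostly need a neuropilin as co-receptor, whereas semaphorins of the other classes are held in the membrane and bind plexins directly. Ephrins are membrane-bound ligands for the Eph receptor tyrosine kinases, so that signals pass only between touching cells and can run in both directions. Both systems were first described in growing axons. In the heart they are known for the septation of the outflow tract, the patterning of sympathetic nerves and the separation of arteries from veins.

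Of these 46 genes, 33 (71.7%) had a lower fitted level in CharmeKO than in CharmeWT hearts, against 48.2% of all genes tested. Their median log2 fold change, CharmeKO over CharmeWT, was -0.44, and that of all genes tested was 0.02. Single genes passed the test seldom. Sema3c rose, and Efnb3 and Nrp2 fell, at a Benjamini-Hochberg adjusted p under 0.1 in edgeR's quasi-likelihood test with a mean of at least 1 FPKM in either genotype. FPKM are fragments scaled to exon length and library size, computed here from the deposited counts. The share that rose was 2.17%, against a background of 1.53% of all genes tested, and the share that fell was 4.35%, against 0.524%. The likelihood ratio test, which the study's methods name, called the same 3 genes and added Sema4d and Plxnb1, both lower. It gave 1 rise against 3.92% of all genes tested, and 4 falls (8.7% of the 46) against 2.35%. In 17 genes (37%) both CharmeKO pools lay below every CharmeWT pool, where the background was 18.2%. In 4 genes (8.7%) both lay above, where the background was 17.8%. In whole hearts, fewer cells of a type and less RNA per cell cannot be told apart.

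**Figure D1:**
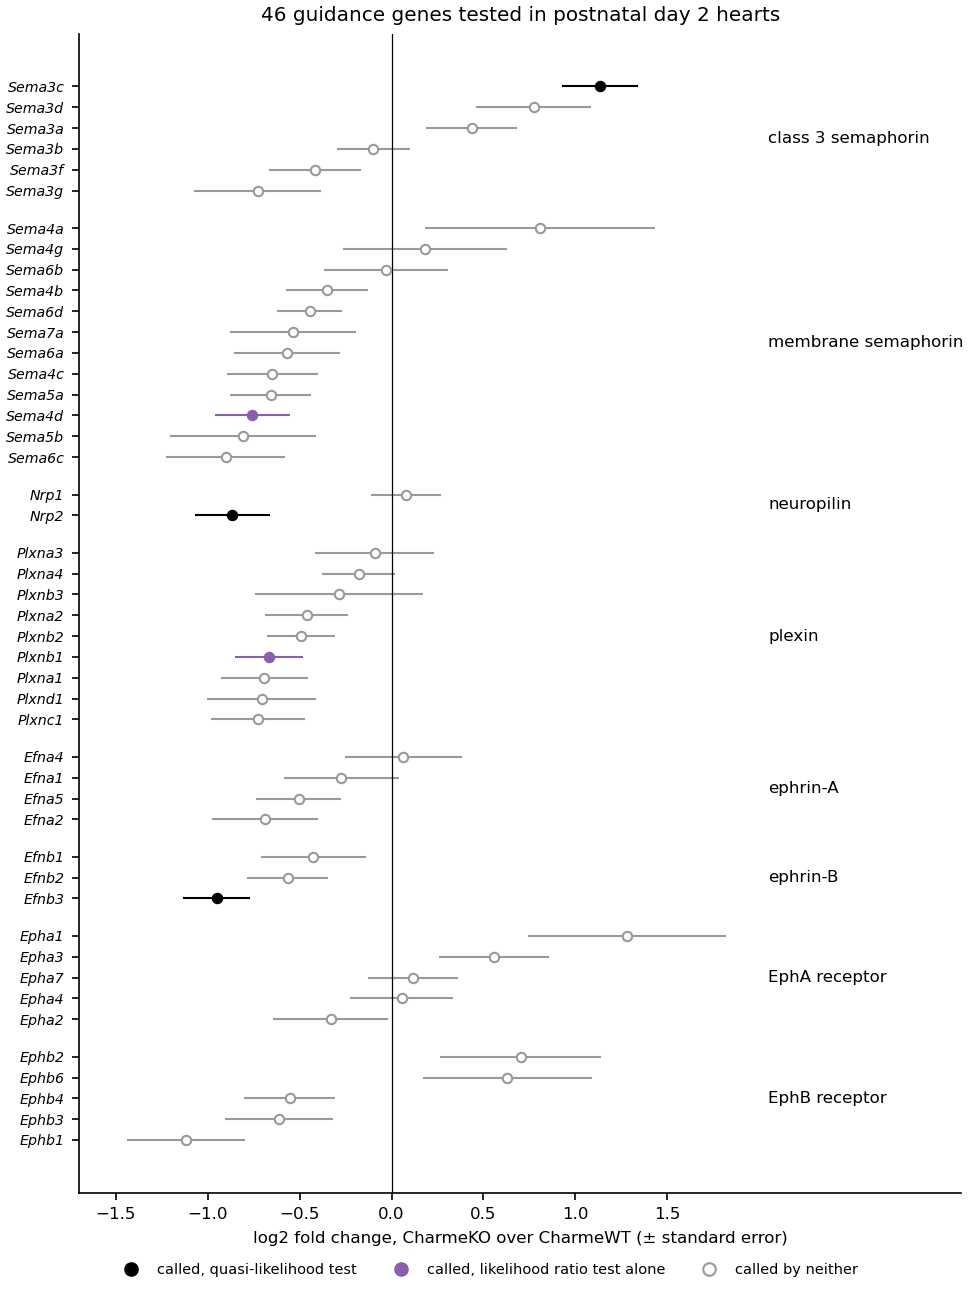
Log2 fold change, CharmeKO over CharmeWT, of the 46 tested genes (horizontal axis), with bars of 1 standard error and genes grouped by class on the vertical axis. All 9 plexins (6 after a correction for gene length and GC content) and all 3 ephrin-B genes lie left of 0, while the 6 class 3 semaphorins are split, with Sema3c at 1.13. Filled black points passed the quasi-likelihood test and filled purple points the likelihood ratio test but not the quasi-likelihood test.

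The promoters of Nrp2 and Plxnb1 are printed below as the 2 receptor genes among the called ones for which a stretch upstream of the annotated gene could be read. Each is the 200 bases that end 51 bases before the RefSeq start, on GRCm38.p6 and the plus strand, and lies outside the gene as GENCODE annotates it. The capitals mark GC boxes (GGGCGG on either strand), the sites of Sp-family transcription factors.
Nrp2, chr1:62703067-62703266: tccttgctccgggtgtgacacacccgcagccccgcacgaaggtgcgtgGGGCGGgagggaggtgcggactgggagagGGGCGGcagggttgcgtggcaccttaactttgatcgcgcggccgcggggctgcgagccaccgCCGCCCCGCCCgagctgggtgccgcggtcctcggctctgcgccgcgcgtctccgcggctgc
Plxnb1, chr9:109095186-109095385: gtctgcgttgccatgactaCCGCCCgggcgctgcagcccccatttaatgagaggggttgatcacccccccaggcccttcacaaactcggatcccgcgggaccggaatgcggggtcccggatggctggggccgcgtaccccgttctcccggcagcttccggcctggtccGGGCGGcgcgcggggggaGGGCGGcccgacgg
The Nrp2 stretch held 4 GC boxes, a pair of which overlapped, and the Plxnb1 stretch held 3. At least 1 GC box was present in 24.6% of the 32851 RefSeq promoters over the same 200 bases. The GC content was 75.5% at Nrp2 and 72.5% at Plxnb1, against a median of 51.5%. Neither stretch held an E-box (CANNTG, in 59.0% of promoters), a GATA motif (AGATAA, 8.42%), the RBPJ motif TGGGAA (17.9%), a CCAAT box (28.4%) or a TATA box (TATAAA, 9.14%) on either strand. These are matches of letters, and no binding was measured.

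Charme, whose count covers the whole locus, was at 39.3, 10.4 and 14.0 CPM (counts scaled to library size) in CharmeWT pools 1 to 3 and at 4.04 and 3.54 CPM in CharmeKO pools 1 and 2, a log2 fold change of -2.49 ± 0.55 (SE, edgeR quasi-likelihood adjusted p = 0.0763). It was not called without CharmeWT pool 1 (-1.68, edgeR adjusted p = 0.153) or pool 3 (-2.72, edgeR adjusted p = 0.275). The libraries held 16721055 to 21646378 counts on genes, and intervals drawn from such counts would cover counting error only. The 2 CharmeKO pools differed from each other. In pool 1, 21.1% of counts were mitochondrial, against 9.68% in pool 2 and 10.8% to 11.1% in CharmeWT pools. In pool 2, 2.56% of counts came from 8 salivary gland genes, against 0.0276% in pool 1 and 1.49e-05% to 2.33e-05% in CharmeWT pools. Of these genes, Bpifa2, Smgc, Prol1, Dcpp2 and Muc19 were at 0 in every CharmeWT pool. Both CharmeKO pools thus held more of these transcripts than any CharmeWT pool. Leaving out 1 CharmeKO pool therefore cannot tell them apart from genotype. Heart muscle markers were abundant in every pool, with a summed 10084 to 12837 FPKM for 8 genes, whereas 6 lung markers summed to 0.124 to 2.01 FPKM, with Sftpd and Nkx2-1 at 0 in every pool, and 10 thymus and T cell markers to 0.318 to 0.994 FPKM, with Rag2 at 0 in every pool. The part of these differences in the results was not tested. Values without a pool show only how far a result rests on that pool.

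The class 3 semaphorins, which are secreted, were the only class in which a gene rose. Sema3c (ENSMUSG00000028780, GRCm38 chr5:17574281-17730268, plus strand) guides cardiac neural crest cells into the outflow tract. It had 202, 180 and 212 counts in CharmeWT pools and 329 and 483 in CharmeKO pools, or 1.37, 1.43 and 1.5 FPKM against 3.26 and 3.03 FPKM. The genotypes did not overlap, and the pools of each genotype lay close together. The mean was 1.43 ± 0.0643 FPKM (SD, n = 3) in CharmeWT and 3.15 ± 0.164 FPKM (SD, n = 2) in CharmeKO, 2.19-fold higher. The log2 fold change was 1.13 ± 0.21 (SE), with an edgeR quasi-likelihood adjusted p of 0.0450. Without CharmeWT pool 1, 2 or 3 the adjusted p was 0.185, 0.118 or 0.289, and the log2 fold change stayed between 1.11 and 1.17. Without CharmeKO pool 1 or 2 the log2 fold change was 1.08 or 1.18. Such fits keep 1 CharmeKO pool and hold no spread within that genotype, so only their effect sizes are given. Each fit without a pool rests on fewer pools. Without CharmeWT pools 1, 2 and 3, edgeR's quasi-likelihood test called 2, 187 and 0 genes of the whole table, and 2190, 1692 and 1315 had an unadjusted p under 0.05.

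Sema3d, a repellent cue in the developing venous pole, and Sema3a, which patterns the sympathetic nerves of the heart, had higher values in both CharmeKO pools but did not pass the test. Sema3d was at 1.70, 0.955 and 1.64 FPKM in CharmeWT and at 3.12 and 1.80 FPKM in CharmeKO pools (log2 fold change 0.77 ± 0.31 SE, edgeR adjusted p = 0.240). The 2 genotypes were separated by the small gap between 1.70 and 1.80 FPKM, and the log2 fold change was 0.33 without CharmeKO pool 1 and 1.11 without CharmeKO pool 2. Sema3a was at 0.886, 0.649 and 0.875 FPKM in CharmeWT and at 1.23 and 0.954 FPKM in CharmeKO pools (0.44 ± 0.25 SE, edgeR adjusted p = 0.365). The paper reports decreased Sema3a, which it names a trabecular marker, in fetal CharmeKO hearts by quantitative PCR. That is an earlier stage and another method. The other 3 tested genes of the class were all lower in their fitted values, and in each the genotypes overlapped. Sema3g, made by arterial endothelium, was at 3.01 to 4.66 FPKM in CharmeWT and at 1.40 and 3.23 FPKM in CharmeKO pools (-0.73 ± 0.35 SE, edgeR adjusted p = 0.291). It rested on CharmeKO pool 1, as the log2 fold change was -0.26 without that pool and -1.47 without CharmeKO pool 2. Sema3f, the classical ligand of neuropilin 2, had a log2 fold change of -0.42 ± 0.25 (SE), and Sema3b one of -0.10 ± 0.20 (SE). Sema3e, the ligand that plexin D1 binds without a neuropilin, had at most 9 counts in any pool.

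The 2 neuropilins, co-receptors shared by class 3 semaphorins and vascular endothelial growth factors, had unequal values. Nrp2 (ENSMUSG00000025969, GRCm38 chr1:62703285-62818695, plus strand), found on venous and lymphatic endothelium and on neurons, had 965, 1137 and 1073 counts in CharmeWT and 396 and 723 in CharmeKO pools. Its level was 3.96, 5.43 and 4.58 FPKM in CharmeWT and 2.37 and 2.74 FPKM in CharmeKO pools, with no overlap. The means were 4.66 ± 0.741 FPKM (SD, n = 3) and 2.55 ± 0.260 FPKM (SD, n = 2), 1.82-fold lower in CharmeKO. The log2 fold change was -0.87 ± 0.20 (SE), and the edgeR quasi-likelihood adjusted p of 0.0923 was close to the threshold. The call was lost without any 1 of the 3 CharmeWT pools (edgeR adjusted p 0.191, 0.278 and 0.405 without pools 1 to 3). The log2 fold change was -0.76 without CharmeKO pool 1 and -0.98 without CharmeKO pool 2. Annotated gene models of uncertain status lie within Nrp2, and their reads could be counted apart from it.

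Nrp1, the co-receptor for Sema3a and VEGF-A, was at 7.31, 9.39 and 9.47 FPKM in CharmeWT and at 10.2 and 8.23 FPKM in CharmeKO pools. The genotypes overlapped, and the log2 fold change was 0.08 ± 0.19 (SE, edgeR adjusted p = 0.848), so that a difference was not detectable at this spread.

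**Figure D2:**
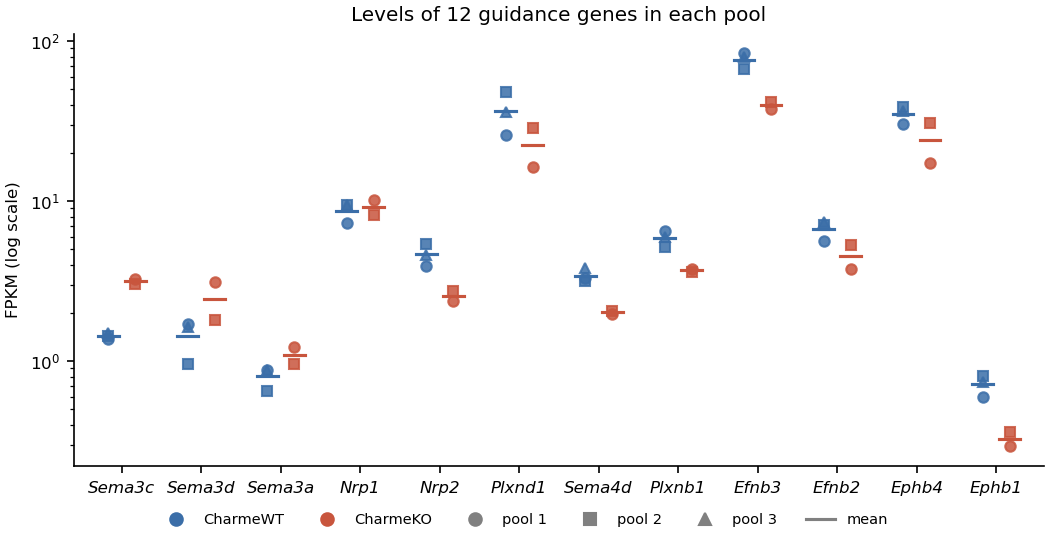
FPKM (vertical axis, logarithmic) of 12 guidance genes in each pool, with CharmeWT in blue, CharmeKO in red, a marker shape for each pool number and a line at each genotype's mean. Sema3c lies at 1.37 to 1.5 FPKM in CharmeWT and 3.03 to 3.26 in CharmeKO pools, Efnb3 at 67.0 to 83.8 and 37.4 to 41.9, and the Nrp1 values overlap. Pools that share a number are not shown to be paired.

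All 9 plexins had a lower fitted level in CharmeKO hearts (6 of 9 after a correction for gene length and GC content), with log2 fold changes from -0.73 to -0.09 and a median of -0.49, which the correction brought to -0.28. None passed the quasi-likelihood test, 5 had an unadjusted p under 0.05, against 18.6% of all genes tested, and in 4 both CharmeKO pools lay below every CharmeWT pool, against 18.2% of all genes. Plxnd1, the endothelial plexin that reads Sema3e and Sema3c, was the most abundant, at 26.0, 47.8 and 36.3 FPKM in CharmeWT and 16.5 and 28.5 FPKM in CharmeKO pools (-0.71 ± 0.30 SE, edgeR adjusted p = 0.248). Its genotypes overlapped, since CharmeKO pool 2 lay above CharmeWT pool 1, and the log2 fold change was -0.36 without CharmeKO pool 1 and -1.16 without CharmeKO pool 2. Plxnb2, a receptor for class 4 semaphorins, varied least among CharmeWT pools, at 30.4, 32.1 and 31.8 FPKM, and was at 19.2 and 25.5 FPKM in CharmeKO pools (-0.49 ± 0.18 SE, edgeR adjusted p = 0.215).

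Plxnb1, the receptor of Sema4d, was at 6.51, 5.18 and 5.94 FPKM in CharmeWT and at 3.78 and 3.63 FPKM in CharmeKO pools (-0.66 ± 0.19 SE). Its adjusted p was 0.137 in the quasi-likelihood test and 0.0561 in the likelihood ratio test, both by edgeR, so the call rested on the choice of test. Sema4d, a membrane semaphorin that can be shed from the cell surface, stood in the same position. It was at 3.29, 3.16 and 3.80 FPKM in CharmeWT and at 1.97 and 2.07 FPKM in CharmeKO pools (-0.76 ± 0.21 SE, edgeR adjusted p = 0.130, and 0.0469 by the likelihood ratio test). Ligand and receptor were thus both lower in each CharmeKO pool than in any CharmeWT pool, and neither passed the quasi-likelihood test. After the length and GC correction the log2 fold change was -0.29 for Plxnb1 (edgeR adjusted p = 0.508) and -0.54 for Sema4d (edgeR adjusted p = 0.186). Plxna1, which partners the neuropilins and binds class 6 semaphorins, was at 5.34 to 7.96 FPKM in CharmeWT and 3.46 and 4.96 FPKM in CharmeKO pools (-0.69 ± 0.24 SE, edgeR adjusted p = 0.187).

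Among the 12 tested semaphorins held in the membrane (classes 4 to 7), 10 had a lower fitted level (9 with upper-quartile normalization or the length and GC correction), at a median of -0.55 on the log2 scale, and in 7 the CharmeKO pools lay below every CharmeWT pool, against 18.2% of all genes tested. None passed the quasi-likelihood test, and 5 had an unadjusted p under 0.05, against 18.6%. The largest difference without overlap was that of Sema6c, at 1.91, 1.93 and 2.50 FPKM in CharmeWT and 0.728 and 1.5 FPKM in CharmeKO pools (-0.90 ± 0.32 SE, edgeR adjusted p = 0.201). CharmeKO pool 1 carried most of it, as the log2 fold change was -0.50 without that pool and -1.54 without CharmeKO pool 2. Sema6d, a ligand of plexin A1 in the developing heart, was at 4.32 to 4.78 FPKM in CharmeWT and 3.40 and 3.26 FPKM in CharmeKO pools (-0.45 ± 0.18 SE, edgeR adjusted p = 0.231). Sema7a, which is anchored by a lipid and binds plexin C1 and integrins, was the most abundant of these genes and varied within CharmeWT from 6.41 to 13.9 FPKM, a range that overlapped the 5.28 and 9.51 FPKM of the CharmeKO pools. Sema4c and Sema5b had log2 fold changes of -0.65 ± 0.25 and -0.81 ± 0.40 (SE), the latter at under 0.4 FPKM in every pool.

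Efnb3, which encodes the transmembrane ligand ephrin-B3, was the most abundant of the 46 genes per length of exon. It lies at GRCm38 chr11:69554092-69560205 on the minus strand (ENSMUSG00000003934). It had 5495, 3767 and 4983 counts in CharmeWT and 1681 and 2976 in CharmeKO pools, or 83.8, 67.0 and 79.2 FPKM against 37.4 and 41.9 FPKM. Every CharmeKO value was below every CharmeWT value by more than the spread within either genotype. The means were 76.7 ± 8.70 FPKM (SD, n = 3) and 39.7 ± 3.18 FPKM (SD, n = 2), 1.93-fold lower in CharmeKO. The log2 fold change was -0.95 ± 0.18 (SE, edgeR quasi-likelihood adjusted p = 0.0521). The edgeR adjusted p was 0.205, 0.0788 and 0.305 without CharmeWT pools 1 to 3, so that the call was lost without CharmeWT pool 1 or 3. The log2 fold change was -0.87 without CharmeKO pool 1 and -1.04 without CharmeKO pool 2.

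The other 2 ephrin-B genes were also lower in their fitted values and did not pass the test. Efnb2, the ligand that marks arterial endothelium, was at 5.65, 7.08 and 7.41 FPKM in CharmeWT and 3.75 and 5.30 FPKM in CharmeKO pools, without overlap (-0.57 ± 0.22 SE, edgeR adjusted p = 0.226). Efnb1 was at 14.6, 17 and 18.2 FPKM in CharmeWT and at 7.92 and 16.7 FPKM in CharmeKO pools, so that only CharmeKO pool 1 stood below (-0.43 ± 0.28 SE, edgeR adjusted p = 0.436).

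Of the 4 tested ephrin-A genes, whose products are anchored by a lipid, 3 had lower fitted values. Efna5 was at 5.70, 4.77 and 4.91 FPKM in CharmeWT and 4.18 and 3.07 FPKM in CharmeKO pools (-0.51 ± 0.23 SE, edgeR adjusted p = 0.273). It passed once trends with gene length and GC content were removed from each pool (log2 fold change -0.73, edgeR adjusted p = 0.0990). Efna2 was also without overlap, at 2.52 to 2.87 FPKM in CharmeWT and 1.46 and 1.83 FPKM in CharmeKO pools. Efna1, the most abundant of this class, ranged from 13.3 to 23.8 FPKM in CharmeWT, and the CharmeKO pools, at 10.4 and 19.9 FPKM, overlapped with it.

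The EphB receptors, which bind ephrin-B ligands, showed no call in either test. Ephb4, the receptor of ephrin-B2 on venous endothelium, was at 30.4, 38.8 and 36.6 FPKM in CharmeWT and at 17.3 and 30.7 FPKM in CharmeKO pools (-0.55 ± 0.25 SE, edgeR adjusted p = 0.268). CharmeKO pool 1 was far below the others, whereas pool 2 lay just above the lowest CharmeWT pool, and the log2 fold change was -0.20 without CharmeKO pool 1 and -1.03 without CharmeKO pool 2. Ephb1 had the largest difference among the 33 lower genes, at 0.596, 0.808 and 0.744 FPKM in CharmeWT and 0.293 and 0.359 FPKM in CharmeKO pools (-1.12 ± 0.32 SE, edgeR adjusted p = 0.143). Its level, under 1 FPKM in every pool, kept it from being called at the likelihood ratio test's adjusted p of 0.0561. Ephb3 was at 2.37, 3.53 and 3.39 FPKM in CharmeWT and at 1.45 and 2.57 FPKM in CharmeKO pools (-0.61 ± 0.29 SE, edgeR adjusted p = 0.295). It too was lower mainly in CharmeKO pool 1, with a log2 fold change of -0.26 without that pool and -1.10 without CharmeKO pool 2.

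Of the 5 tested EphA receptors 4 had a higher fitted value (2 after the length and GC correction), and none passed. Epha3, a receptor active in the endocardial cushions, was at 0.391, 0.397 and 0.570 FPKM in CharmeWT and at 0.636 and 0.696 FPKM in CharmeKO pools (0.56 ± 0.30 SE, edgeR adjusted p = 0.338). Epha4 and Epha7, the more abundant members together with Epha2, had log2 fold changes of 0.06 ± 0.28 and 0.11 ± 0.24 (SE), while that of Epha2 was -0.33 ± 0.31 (SE).

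A few genes were high in CharmeKO pool 2 alone, and they were noted after their values had been seen. Epha1 had 17, 15 and 18 counts in CharmeWT pools, 11 in CharmeKO pool 1 and 71 in pool 2. Sema4a had 21, 34 and 33 counts in CharmeWT pools, then 8 and 99 in CharmeKO pools. Ephb6 had 73, 39 and 48 counts in CharmeWT pools, then 27 and 140, Ephb2 had 40, 22 and 46, then 24 and 92, and the untested Epha5 had at most 3 counts outside pool 2. The 2 CharmeKO pools thus lay on opposite sides of the CharmeWT values in Epha1, Sema4a and Ephb6. Pool 2 also held the most salivary gland transcripts, a summed 11345 FPKM of 8 genes. These summed to 148 FPKM in CharmeKO pool 1 and to 0.116 to 0.193 FPKM in CharmeWT pools. The 6 adipose markers summed to 869 FPKM in pool 2, 188 FPKM in CharmeKO pool 1 and 141 to 179 FPKM in CharmeWT pools. The median log2 ratio of the adipose markers to the CharmeWT mean was 7.01 in pool 2 and 3.30 in CharmeKO pool 1. Pool 2 had 13.4 FPKM of 10 Schwann cell and neural markers, against 4.77 to 5.30 FPKM elsewhere. The part of these transcripts in the values was not tested.

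Over all 46 genes, 28 were below the CharmeWT mean in both CharmeKO pools, 4 were above it in both, and 14 were on opposite sides. The median log2 ratio to the CharmeWT mean was -0.64 in CharmeKO pool 1 and -0.19 in pool 2, while single CharmeWT pools were at -0.14, 0.01 and 0.13. CharmeKO pool 2 was thus only slightly lower than the lowest CharmeWT pool, and pool 1 was clearly lower. The median log2 fold change was -0.22 without CharmeKO pool 1 and -0.67 without CharmeKO pool 2. Calls in these fits are not given, since each keeps 1 CharmeKO pool and holds no spread within that genotype.

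**Figure D3:**
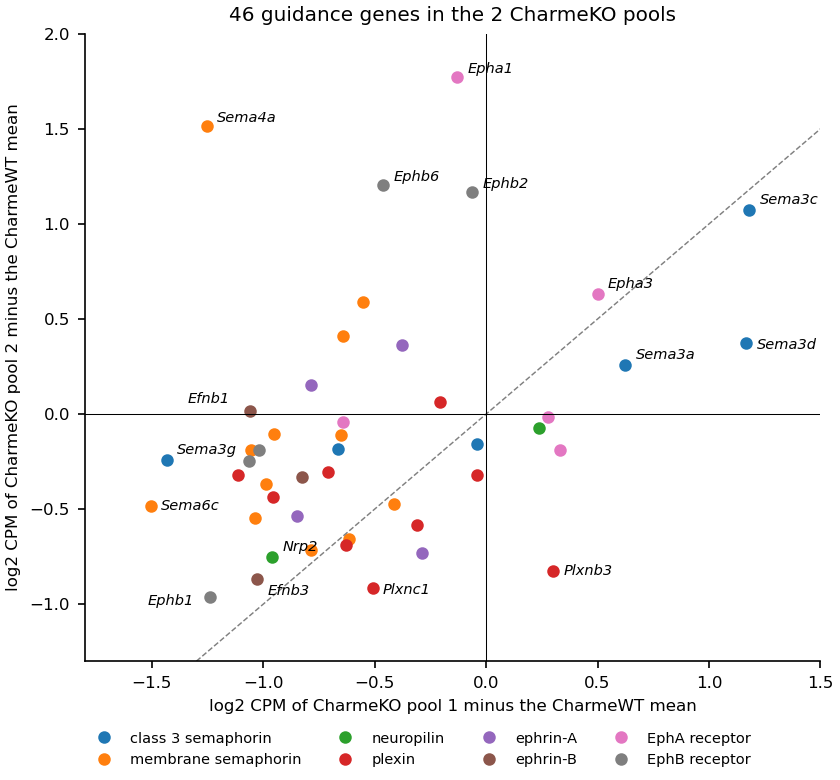
Log2 CPM of each of the 46 genes in CharmeKO pool 1 (horizontal axis) and pool 2 (vertical axis), each minus the mean of the 3 CharmeWT pools, colored by class, with the dashed line at equal values. Of the 46 points, 31 lie above the dashed line, that is, lower in pool 1 than in pool 2, and Epha1, Sema4a and Ephb6 lie high on the pool 2 axis alone.

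Fold changes followed the base composition of the transcripts over the whole table. The median log2 fold change of all genes fell from 0.37 in genes under 40% GC to -0.28 in genes over 60%. The guidance genes were GC-rich, with a median of 56.1% against 49.8%, and long, with a median of 7041 bases of exon against 4239. Of the 33 guidance genes with at least 50% GC, 27 (81.8%) were lower, at a median log2 fold change of -0.49, while 64.0% of all such genes were lower, with a median of -0.16. In 13 of these 33 (39.4%) both CharmeKO pools lay below every CharmeWT pool, against 26.7% of all such genes. The share called as fallen was 6.06%, against 0.842%. Of the 13 genes under 50% GC, 6 were lower, with a median of 0.06, against 33.0% and a median of 0.18 for all such genes. Here 4 (30.8%) lay below every CharmeWT pool in both CharmeKO pools, against 10.1%, and 4 (30.8%) above, against 24.2%. Sema3c (42.7% GC) rose and was GC-poor, and Efnb3 (57.7%) fell and was GC-rich, each in the direction of the genes of like composition.

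When trends on gene length and GC content were removed from each pool, the median of the 46 genes became -0.29 and that of all genes -0.04. Of the 46 genes 31 were then lower, and of all 14880 genes 8093 were. The corrected fit called 223 rises and 136 falls among all genes tested. Sema3c (log2 fold change 0.93, edgeR adjusted p = 0.0597), Efnb3 (-0.78, 0.0884) and Nrp2 (-0.67, 0.0950) were still called. The number of lower plexins went from 9 to 6 of 9, and the EphA receptors went from 1 to 3 lower of 5. The lower counts went from 10 to 9 of 12 membrane semaphorins and from 3 to 2 of 6 class 3 semaphorins, and both neuropilins were then lower. Ephrins and EphB receptors kept their counts of lower genes. With the correction and the replicate number together, none of the 46 was called, and 8 had an unadjusted p under 0.05. Of all 14880 genes tested, 35 were called in that setting and 1527 had an unadjusted p under 0.05.

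**Figure D4:**
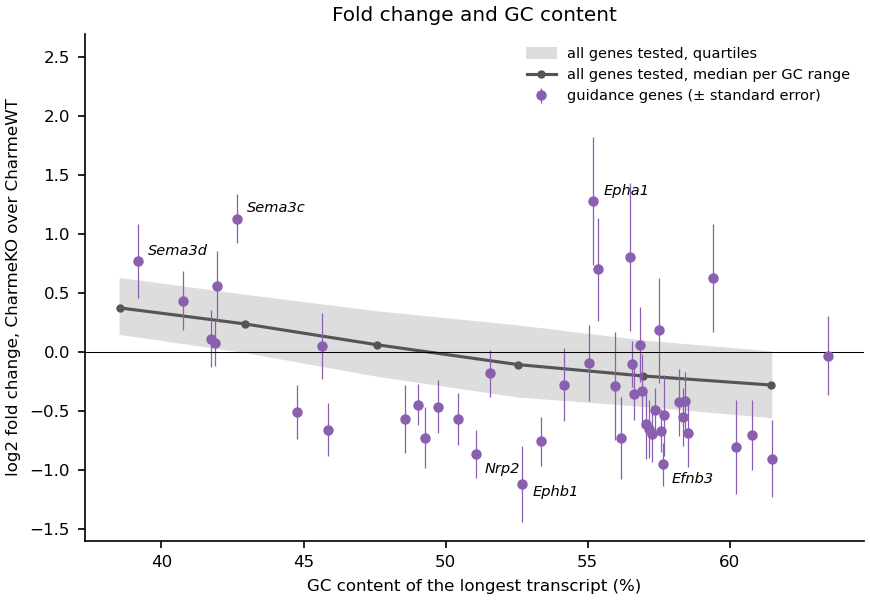
Log2 fold change, CharmeKO over CharmeWT (vertical axis), against the GC content of the longest transcript in percent (horizontal axis). Purple points are the 46 guidance genes with bars of 1 standard error, and the grey line and band are the median and quartiles of all tested genes in 6 ranges of GC content, falling from 0.37 to -0.28. Sema3c and Ephb1 lie well outside the band, Efnb3 and Nrp2 below it.

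Genes that work with these receptors were read in the same fit, from lists written with earlier results of these data known. Of 42 tested partners and effectors of plexins and neuropilins, 30 were lower, with a median of -0.17, and none passed the quasi-likelihood test, while 10 had an unadjusted p under 0.05 (23.8%, against 18.6% of all genes tested). The likelihood ratio test called 2 of them higher (4.76%, against 3.92%), shares near the background. Among these was Cfl1, which severs actin filaments, at 139 to 176 FPKM in CharmeWT and 284 and 219 FPKM in CharmeKO pools (0.65 ± 0.20 SE, edgeR likelihood ratio adjusted p = 0.0879).

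Of 37 tested effectors of Eph receptors and ephrins, 24 were lower, with a median of -0.17, and 1 fell. This was Inppl1, which encodes the lipid phosphatase SHIP2 that binds the EphA2 receptor. Its level was 23.0, 24.8 and 24.5 FPKM in CharmeWT and 13.6 and 15.1 FPKM in CharmeKO pools, with no overlap (-0.75 ± 0.17 SE, edgeR quasi-likelihood adjusted p = 0.0800). The share was 2.7%, against 0.524% of all genes tested. Inppl1 did not pass after the length and GC correction (-0.45, edgeR adjusted p = 0.203), nor without CharmeWT pool 1, 2 or 3 (edgeR adjusted p = 0.229, 0.226 and 0.405).

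Of 20 tested genes of the other guidance systems (Slits, Robos, netrins and their receptors, and repulsive guidance molecules), 14 were lower, with a median of -0.27. None passed the quasi-likelihood test, and 6 had an unadjusted p under 0.05 (30%, against 18.6% of all genes tested). By the likelihood ratio test 2 netrins were called lower (10% of the list, against 2.35%). Ntn1 was at 37.5 to 45.3 FPKM in CharmeWT and 21.1 and 28.4 FPKM in CharmeKO pools (-0.71 ± 0.20 SE, edgeR likelihood ratio adjusted p = 0.0540), and Ntn4, a netrin of basement membranes, at 13.9 to 17.7 and at 10.9 and 9.87 FPKM (-0.64 ± 0.19 SE, edgeR likelihood ratio adjusted p = 0.0729). Flrt3, an adhesion protein that binds Unc5 receptors, was called higher (5% of the list, against 3.92%), at 0.469 to 0.512 and at 1.76 and 0.912 FPKM (1.40 ± 0.35 SE, edgeR likelihood ratio adjusted p = 0.0139, and 0.102 in the quasi-likelihood test). The shares of lower genes in the 3 lists, 71.4%, 64.9% and 70%, were close to the 71.7% of the guidance genes, and no test of the difference was made. After the length and GC correction the list medians were -0.10, -0.12 and -0.10. That of the guidance genes was then -0.29 and that of all genes -0.04.

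Many of these receptors are made by endothelial cells, so marker genes were read beside them. Of 10 endothelial markers 8 were lower and none passed the quasi-likelihood test. Their summed level was 278 to 329 FPKM in CharmeWT, 220 FPKM in CharmeKO pool 1 and 272 FPKM in CharmeKO pool 2. Their median log2 ratio to the CharmeWT mean was -0.71 in pool 1 and -0.12 in pool 2, next to the -0.64 and -0.19 of the guidance genes. Of the 9 markers of smooth muscle and pericytes 6 were lower and Cnn1 rose, with a summed 394 to 851 FPKM in CharmeWT and 570 and 684 FPKM in CharmeKO pools. Epicardial markers were higher, 6 of 7, and Krt19 rose, with a summed 34.2 to 49.9 FPKM in CharmeWT and 63.1 and 62.0 FPKM in CharmeKO pools. Markers of blood cells and skeletal muscle were also higher. All 5 tested erythroid markers were higher and Hba-a1 and Hbb-bt rose, with a summed 404 to 492 FPKM in CharmeWT and 878 and 737 FPKM in CharmeKO pools. Of 8 macrophage markers 6 were higher and Mrc1 rose, with a summed 60.3 to 103 FPKM in CharmeWT and 75.5 and 134 FPKM in CharmeKO pools. All 7 tested skeletal muscle markers were higher, at a median log2 fold change of 2.25, and Myh8 and Mylpf rose. Their median log2 ratio to the CharmeWT mean was 0.68 in CharmeKO pool 1 and 2.85 in pool 2. The sum over the list, part of which heart muscle also expresses, was 1040 to 1334 FPKM in CharmeWT and 1449 and 1325 FPKM in CharmeKO pools. The genes that rose were 11.1% of tested smooth muscle and pericyte markers, 14.3% of epicardial and 40% of erythroid ones. They were 12.5% of macrophage and 28.6% of skeletal muscle markers, against 1.53% of all genes tested. Fibroblast markers summed to 494 to 598 FPKM in CharmeWT and to 586 and 701 FPKM in CharmeKO pools. The part of these cell types in the results was not tested.

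**Figure D5:**
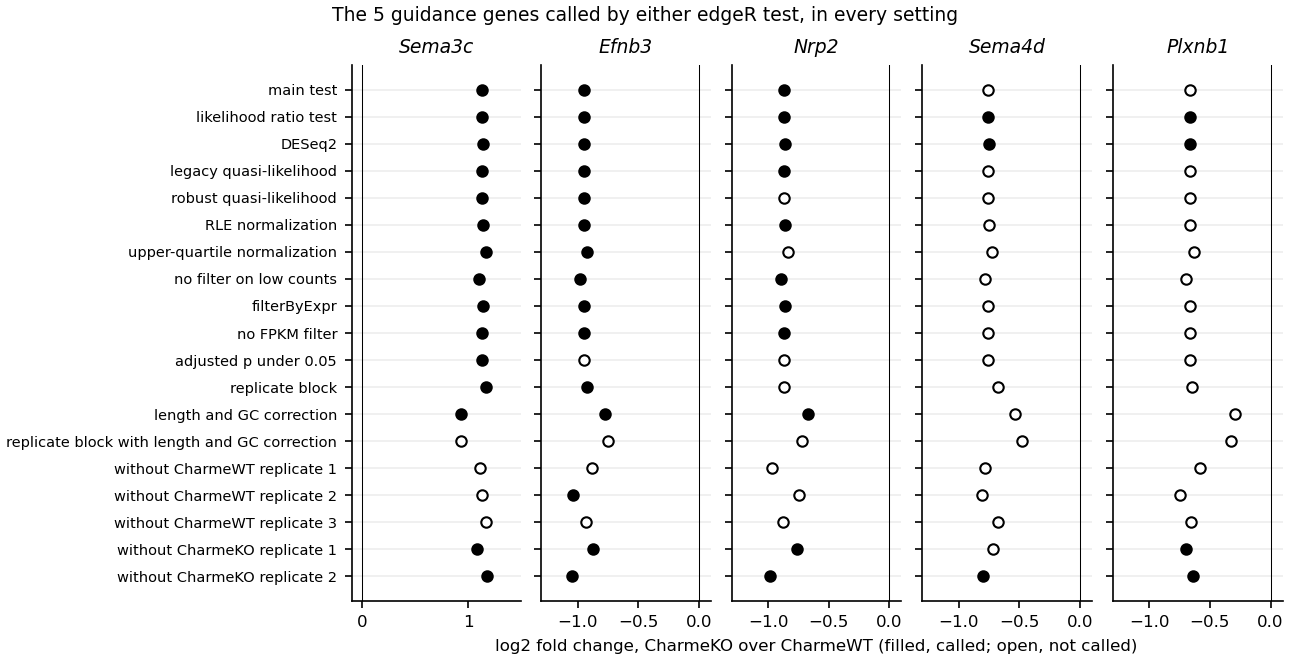
Log2 fold change, CharmeKO over CharmeWT (horizontal axes), of the 5 genes called by either edgeR test under the main test and 18 alternatives (vertical axis). Filled points were called and open points were not. Fits without a CharmeKO pool keep 1 such pool, so their calls hold no spread within CharmeKO. Every value of a gene stays on 1 side of 0, Sema3c on the positive side and Efnb3, Nrp2, Sema4d and Plxnb1 on the negative side.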

How the data were processed

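Polyadenylated RNA of 5 heart pools was sequenced as stranded paired-end libraries. The authors trimmed reads with Cutadapt and Trimmomatic, mapped them with STAR (GRCm38) and took its gene counts for the reverse strand, using the annotation of Ensembl release 87. The deposited counts are raw. A deposited FPKM table, written with decimal commas, was not used, so levels rest on the counts and on exon lengths of GENCODE M21, which matched 49411 genes (23 of the tested genes had none and were given 1000 bases).

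Genes reaching 10 counts in 2 or more pools were normalized by TMM and tested for genotype over all 5 pools with the quasi-likelihood test of edgeR 4.0.16 (newer form, R 4.3.3), with Benjamini-Hochberg adjustment over 14880 genes. The study names the likelihood ratio test. Called genes had an adjusted p under 0.1 and at least 1 mean FPKM. The SE is the absolute log2 fold change over the square root of F. The fits were run on simulated counts with the same dispersion for every gene and pool, no trend with GC content and no unlike pool. They were not tested under the differences between pools seen here. P-values measure the spread between pools, 3 against 2. A fit without a CharmeKO pool keeps 1 such pool, so its p-value would hold no spread within CharmeKO and is not given. Log2 ratios of single pools used CPM plus 0.1. Alternatives were the likelihood ratio test, DESeq2 1.42.0, other forms, normalizations, filters and thresholds, a correction for length and GC content by splines with 4 degrees of freedom, the replicate number as a block, and each pool left out.

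The genes, lists and markers were chosen with earlier results of these data known. Genes were named if called by either edgeR test, if among the 3 most abundant of their class, if among the 5 largest rises or falls without overlap, or if named by the study (Sema3a, Sema3c). This gave 32 genes. Sema3e, Epha1, Sema4a, Ephb2 and Epha5, and the list genes, were named after their values were seen. Sequences came from the RefSeq promoter table, which held 40 of the 46 genes. 1 gene of the plexin and neuropilin list is not reported here.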

Additional observations from a re-analysis of the deposited data

How the results depend on the processing

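For the 32 named genes and 18 alternatives, 520 of 576 values kept their direction and their side of the threshold, 16 lost a call, 26 gained one and 14 changed sign, and 25 genes never changed sign. These counts include the fits that keep 1 CharmeKO pool, whose calls hold no spread within that genotype. The values that changed sign were all small or rested on 1 pool, and the cause was not tested. With the length and GC correction the log2 fold change was -0.015 for Epha4, -0.082 for Epha7, -0.13 for Nrp1 and 0.16 for Sema3b. With the replicate block and that correction it was -0.10 for Nrp1 and 0.15 for Sema3b. With 1 pool left out it ranged from -0.83 to 0.12 for Efna1, -1.07 to 0.012 for Efnb1, -0.23 to 0.29 for Epha4, -0.038 to 0.30 for Epha7, -0.53 to 1.19 for Ephb6 and -0.082 to 0.22 for Nrp1. Leaving out a CharmeKO pool gave the sign change in each of these genes, and leaving out CharmeWT pool 2 (Epha4) or 1 (Nrp1) also gave it.

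The main test gave 2 falls, beside 78 among all 14880 genes tested, and the latter count follows in brackets for each alternative. Falls numbered 4 under the likelihood ratio test (349), 7 under DESeq2 (477) and 3 with the length and GC correction (136). There was 1 each with the robust test (51), upper-quartile normalization (54) and the replicate block (60). At an adjusted p under 0.05 there were 0 (14). With the block and the length and GC correction there were also 0 (4), and the single rise became 0, against 31 rises of all genes. These counts therefore do not show a change in the guidance genes alone. With 1 pool left out there were 0 to 2 rises and 0 to 21 falls, and the median log2 fold change was -0.67 to -0.22. The calls among plexin and neuropilin partners, 0 in the main test, were 2 under the likelihood ratio test, 2 under DESeq2, and 0 to 17 with a pool left out. Among Eph and ephrin effectors, the 1 call became 2 by DESeq2 and 2 with no filter on low counts (331 of all 24464 genes then tested). It became 0 at an adjusted p under 0.05, 0 with the replicate block and 0 with the block and the correction. With any CharmeWT pool left out it was also 0. With the length and GC correction the single call was Adam10 in place of Inppl1. Among the Slit, Robo and netrin genes the 0 calls became 3 in the likelihood ratio test, 6 in DESeq2 and 1 with upper-quartile normalization, and 0 to 8 with a pool left out. Counts of calls without a CharmeKO pool are not given here, since such fits keep 1 CharmeKO pool and hold no spread within that genotype. Charme kept its log2 fold change of -2.49 but not its call with the robust test and at an adjusted p under 0.05. With the block and the correction it was at -2.42 and also lost its call (edgeR quasi-likelihood adjusted p = 0.174). No length or GC content was annotated for Charme, so the correction did not act on its values. With a pool left out its log2 fold change ranged from -2.82 to -1.68, and it lost its call without CharmeWT pool 1 or 3.

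The replicate numbers were not shown to pair the pools: the deviations from the group means correlated across genes at 0.14 for the pools numbered 1 and 0.08 for those numbered 2, and only 2 pairs exist. With the replicate block, 15 of the 46 genes had an unadjusted p under 0.05, against 19 without it, and Nrp2 was at an edgeR adjusted p of 0.116. Of all 14880 genes tested, 2224 had such an unadjusted p with the block and 2767 without it. Some genes under about 1 FPKM, such as Epha1, rest on few counts, and differences in them were seldom detectable. A mean under 1 FPKM in both genotypes also kept a gene from being called, except in the setting without the FPKM filter. The deposited FPKM values were not run as an alternative, as their table was not used.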
